A study of Homo sapiens with 3 samples.

Results

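Laminin subunits are the chains of the laminins, and 9 genes of the family were followed here by symbol: LAMA1, LAMA3, LAMA4 and LAMA5 of the alpha class, LAMB1, LAMB2 and LAMB3 of the beta class, and LAMC1 and LAMC3 of the gamma class. They were 9 of the 16149 genes listed in any of 3 RNA sequencing libraries of human hepatocellular carcinoma (HCC) cells. The parent library was labelled as the HCCLM3 line with low metastatic ability, subclone 1 as HCCLM3 cells with higher metastasis to the lung, and subclone 2 as HCCLM3 cells that spread to both lung and celiac lymph node. All of them were grown in DMEM, lysed with Trizol and prepared with an Illumina TruSeq kit from 1 ug of total RNA. According to the methods of the study, the parental cells carried red fluorescent protein and had a high metastatic potential, which differs from the label. The monoclonal lines of the study each descended from 1 cell of a lung or lymph node metastasis grown in nude mice, and the sources used here do not name the clone behind either subclone library. Each group held 1 library, so no test between cell lines was possible, and every interval below covers counting error only.

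A laminin is a trimer of an alpha, a beta and a gamma chain that assembles inside the cell and polymerises outside it into the sheet on which a basement membrane is built. Cells hold on to that sheet through integrins and dystroglycan, which bind mainly the end of the alpha chain. In liver, laminins are sparse along normal sinusoids and are laid down around bile ducts, vessels and many tumours.

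The parent library held 4488825 reads, that of subclone 1 4609696 and that of subclone 2 4725150, as recovered from the deposited values. The epithelial markers EPCAM, KRT8, KRT18 and CDH1 were all listed and summed to 2569.2, 2724.8 and 2803.0 RPKM in the parent, subclone 1 and subclone 2. Nearly all of each sum was KRT8 and KRT18. EPCAM had 2, 1 and 3 reads, and CDH1, the epithelial cadherin, was at 2.08, 8.97 and 12.3 RPKM. Of 8 hepatocyte markers, 6, 6 and 7 were listed, with sums of 18.5, 81.0 and 95.7 RPKM, and APOA2 was at 0 in all 3 libraries. ALB, the main plasma protein made by hepatocytes, was at 2.46 RPKM in the parent, against 49.5 in subclone 1 and 68.8 in subclone 2. Most of the hepatocyte sum was HNF4A in the parent and ALB in each subclone. HNF4A was at 11.7, 11.9 and 16.01 RPKM in the parent, subclone 1 and subclone 2, and AFP at 2.41, 4.16 and 4.27. FGB was 8.73 times the parent in subclone 1 and 3.38 times it in subclone 2. APOA1 had 1, 3 and 2 reads, SERPINA1 had 1, 4 and 1, and TTR had 0, 0 and 2. RPKM is the number of reads of a gene scaled to the length of the gene and to that read total of the library.

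LAMB1 and LAMB2, the beta chains that can take each other's place in a trimer, differed from the parent in opposite directions, and the 250 bases before the start of each are shown for that reason. They come from RefSeq on GRCh38.p14, at chr7:108003162-108003411 and chr3:49133051-49133300, both on the minus strand, and capitals mark GGGCGG on either strand.
LAMB1: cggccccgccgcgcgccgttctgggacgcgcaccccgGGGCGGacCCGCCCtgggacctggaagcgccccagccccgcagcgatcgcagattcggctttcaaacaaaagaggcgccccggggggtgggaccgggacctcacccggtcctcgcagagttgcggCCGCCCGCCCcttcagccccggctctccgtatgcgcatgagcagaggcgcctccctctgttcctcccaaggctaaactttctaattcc
LAMB2: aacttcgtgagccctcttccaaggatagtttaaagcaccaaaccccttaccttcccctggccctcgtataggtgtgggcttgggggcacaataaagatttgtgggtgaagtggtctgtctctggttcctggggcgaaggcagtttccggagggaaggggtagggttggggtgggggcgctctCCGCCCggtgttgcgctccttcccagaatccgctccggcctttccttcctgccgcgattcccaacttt

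The LAMB1 stretch held 28 CpG and a GC content of 70.4%, and the LAMB2 stretch held 12 CpG and 58.4%. The medians over 35116 promoter stretches of the same length were 11 CpG and 58%. The motif occurred 4 times before LAMB1, where 2 of the matches overlap, and 1 time before LAMB2. It was present in 42.6% of all these stretches. Neither stretch held the TATA box motif TATAAA, the TPA element motif TGANTCA or the motif CCAAT on either strand, which occurred in 10.7%, 6.57% and 32.01% of all stretches. Of the 9 genes, 7 had an entry in the promoter table.

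The genes lie on several chromosomes. LAMB1 (Entrez gene 3912) is on chromosome 7, LAMB2 (3913) on chromosome 3, LAMB3 (3914) and LAMC1 (3915) on chromosome 1, and LAMC3 (10319) on chromosome 9. LAMA1 (284217) and LAMA3 (3909) are on chromosome 18, LAMA4 (3910) on chromosome 6 and LAMA5 (3911) on chromosome 20.

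Of the 9 chains, 7 were listed in all 3 libraries and 2, LAMA1 and LAMC3, in none. LAMB1 was at least 2-fold higher in both subclones than in the parent, and no other chain passed 2-fold in any comparison. LAMA5 was less than 2-fold higher in each subclone, LAMB2 was lower in both, and LAMA3 stayed within counting error of the parent in both. The background was all 11370 genes whose mean reached 1 RPKM. Of these, 4.90% passed 2-fold upwards and 1.82% downwards when subclone 1 was set against the parent. With subclone 2 against the parent the shares were 5.33% upwards and 2.16% downwards, and with subclone 2 against subclone 1 they were 1.42% and 1.39%. Against these shares, 1 of the 7 listed chains was higher in each subclone, 0 were lower, and 0 differed in either direction between the subclones. Ratios below are log2 of (RPKM + 0.1), a scale on which the change of a low gene comes out too small. Folds are ratios of RPKM.

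**Figure D1:**
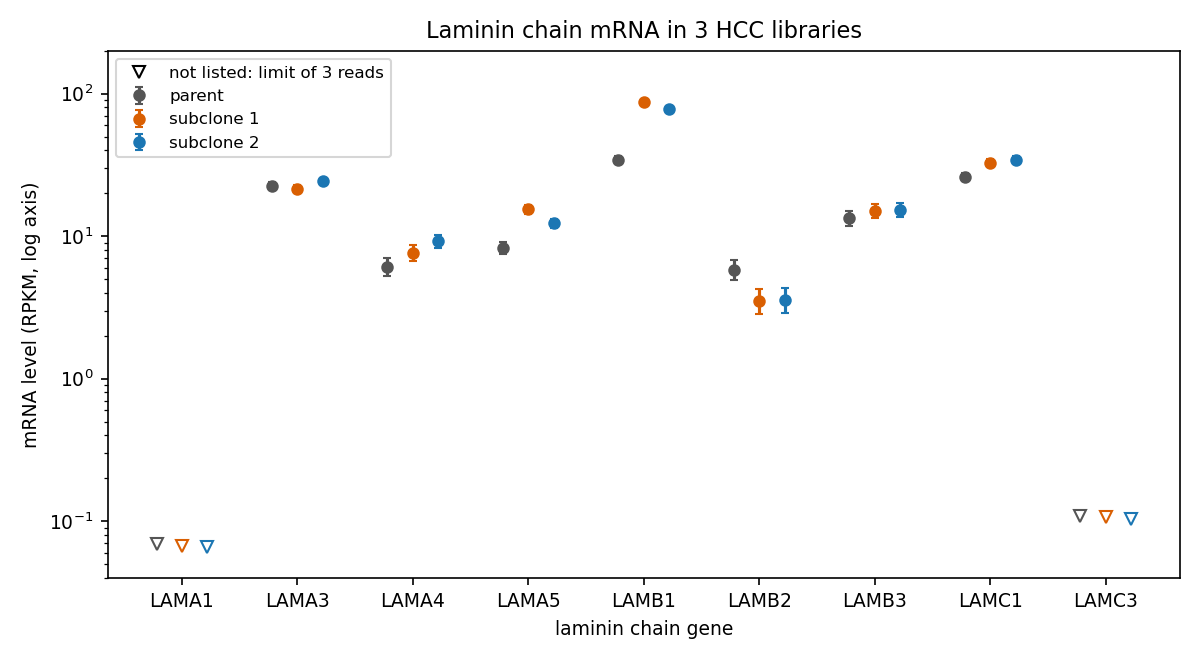
Levels of the 9 laminin chains (RPKM on a log axis) in the parent, subclone 1 and subclone 2, with 95% counting intervals as bars and open triangles at the limit of 3 reads for chains that were not listed. At the deposited gene lengths LAMB1 is the highest chain in each library, at 34.4, 86.9 and 78.6 RPKM.

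LAMB1, the beta chain of most laminins outside the epidermis, was at 34.4 RPKM in the parent (95% interval 32.2 to 36.8, 907 reads), 86.9 in subclone 1 (83.4 to 90.5, 2350 reads) and 78.6 in subclone 2 (75.3 to 82.0, 2179 reads). Both subclones were above the parent, and the intervals of the 3 libraries did not overlap. The fold over the parent was 2.52 (2.34 to 2.73) in subclone 1 and 2.28 (2.11 to 2.47) in subclone 2, or log2 ratios of 1.33 and 1.19. These placed LAMB1 at percentiles 97.0 and 96.1 of all genes compared. Subclone 2 was 0.905 times subclone 1 (0.853 to 0.959). Whether a higher level came from more cells with the transcript or from more of it per cell cannot be told apart in bulk RNA. Of 6 fibroblast markers, 5, 5 and 4 were listed in the parent, subclone 1 and subclone 2, and their sums of 15.7, 31.1 and 24.3 RPKM were also higher in the subclones. Most of each sum was LUM, at 10.1, 23.99 and 21.0 RPKM. DCN was at 0.773, 4.42 and 2.75 RPKM, while COL3A1 went the other way, at 4.42, 2.21 and 0.463 RPKM. PDGFRB was at 0 in every library and COL1A1 was at 0.338, 0.403 and 0.0357 RPKM. The part of such markers in the laminin levels was not tested.

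LAMB2, the beta chain of vascular and neuromuscular basement membranes, went the other way, at 5.82 RPKM in the parent (4.93 to 6.82, 152 reads), 3.51 in subclone 1 (2.83 to 4.29, 94 reads) and 3.57 in subclone 2 (2.89 to 4.35, 98 reads). The parent was above both subclones with no overlap of intervals, and the subclones overlapped each other. The folds over the parent were 0.602 (0.461 to 0.784) and 0.612 (0.470 to 0.795), at percentiles 4.74 and 5.10 of all genes. LAMB3, the beta chain of the epithelial anchoring laminin, was at 13.4 RPKM in the parent, against 15.0 in subclone 1 and 15.3 in subclone 2. Its folds over the parent, 1.12 (0.948 to 1.33) and 1.14 (0.964 to 1.35), had intervals that included 1.

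The ratio of LAMB1 to LAMB2 reads per length does not depend on the library totals. It was 5.92 in the parent (4.98 to 7.07), 24.8 in subclone 1 (20.2 to 30.8) and 22.0 in subclone 2 (18.0 to 27.3). It was thus 4.19 times (3.18 to 5.54) and 3.73 times (2.84 to 4.91) the parental ratio, and 0.889 times (0.659 to 1.20) between the subclones. The LAMB3 to LAMB1 ratio was 0.389 in the parent, against 0.173 in subclone 1 and 0.194 in subclone 2. In both subclones it was below the parental ratio, by factors of 0.445 (0.369 to 0.537) and 0.499 (0.415 to 0.601).

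LAMA5, the alpha chain of most adult epithelial and vascular basement membranes, was at 8.21 RPKM in the parent (7.44 to 9.03, 421 reads), 15.4 in subclone 1 (14.4 to 16.5, 811 reads) and 12.3 in subclone 2 (11.4 to 13.3, 663 reads). The 3 libraries did not overlap, with subclone 1 highest and the parent lowest. The fold over the parent was 1.88 (1.67 to 2.12) in subclone 1 and 1.496 (1.32 to 1.69) in subclone 2. Subclone 2 was 0.798 times subclone 1 (0.719 to 0.885), which was at percentile 10.2 of all genes.

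LAMA4, the alpha chain of endothelial and mesenchymal laminins, was at 6.08 RPKM in the parent (5.27 to 6.99, 199 reads), 7.65 in subclone 1 (6.74 to 8.65, 257 reads) and 9.18 in subclone 2 (8.19 to 10.2, 316 reads). Subclone 2 was 1.51 times the parent (1.26 to 1.81) and subclone 1 was 1.26 times it (1.04 to 1.52). The intervals of the parent and subclone 2 did not overlap, while that of subclone 1 overlapped both. The order of the subclones was the reverse of that for LAMA5. Of 5 endothelial markers, 4, 5 and 4 were listed, with sums of 5.11, 11.9 and 7.60 RPKM, and CDH5 was at 0 in the parent and subclone 2. Most of each sum was PECAM1, at 3.33, 9.81 and 4.46 RPKM, while KDR was at 1.36, 1.93 and 3.08 RPKM. TEK had 8, 2 and 1 reads and VWF had 2, 1 and 1. For 5 leukocyte markers, of which 4, 3 and 2 were listed, the sums were 9.04, 13.9 and 11.7 RPKM, and CD3E was at 0 in every library. Most of each leukocyte sum was CD79A, at 7.79, 11.9 and 10.3 RPKM. PTPRC had 2, 0 and 0 reads, CD14 had 1, 8 and 0, and LYZ had 7, 7 and 10. The part of such markers in the LAMA4 level was not tested.

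LAMA3, the alpha chain of the epithelial anchoring laminin, was at 22.5 RPKM in the parent (21.2 to 23.9, 1062 reads), 21.5 in subclone 1 (20.2 to 22.9, 1043 reads) and 24.2 in subclone 2 (22.9 to 25.7, 1204 reads). Neither fold over the parent, 0.956 (0.877 to 1.04) in subclone 1 and 1.08 (0.991 to 1.17) in subclone 2, had an interval that left out 1. Between the subclones the fold was 1.13 (1.04 to 1.22). The level was scaled to a length of 10511 bases, near that of the long coding transcript. LAMA3 also has a shorter coding transcript of 5671 bases, and if all reads came from it the levels would be 41.7, 39.9 and 44.9 RPKM. The place of LAMA3 among the chains thus depends on the transcript, while its folds between libraries do not depend on that length.

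LAMA1, the alpha chain of the early embryo, was not listed in any library. A count of 0 allows up to 3 reads, or 0.0692 RPKM in the parent, against 0.0674 in subclone 1 and 0.0657 in subclone 2. LAMA5 was compared with the other listed alpha chains by their read ratios. LAMA5 to LAMA3 was 0.365, 0.715 and 0.507 in the parent, subclone 1 and subclone 2, which was 1.96 times (1.69 to 2.28) and 1.39 times (1.20 to 1.61) the parent. LAMA5 to LAMA4 was 1.35, 2.01 and 1.34, and subclone 2 was 0.992 times the parent (0.794 to 1.24).

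LAMC1, the gamma chain shared by most laminins, was at 25.9 RPKM in the parent (24.3 to 27.7, 918 reads), 32.9 in subclone 1 (31.0 to 34.8, 1195 reads) and 34.3 in subclone 2 (32.4 to 36.2, 1278 reads). Both subclones were above the parent, by 1.27-fold (1.16 to 1.38) and 1.32-fold (1.21 to 1.44), and they overlapped each other. LAMC3, a gamma chain of restricted tissues, was not listed, with limits of 0.109, 0.106 and 0.104 RPKM. The ratio of LAMB1 to LAMC1, a pair chosen after the values were seen, was 1.33, 2.64 and 2.29. It was 1.99 times (1.77 to 2.24) and 1.73 times (1.54 to 1.94) the parental ratio.

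**Figure D2:**
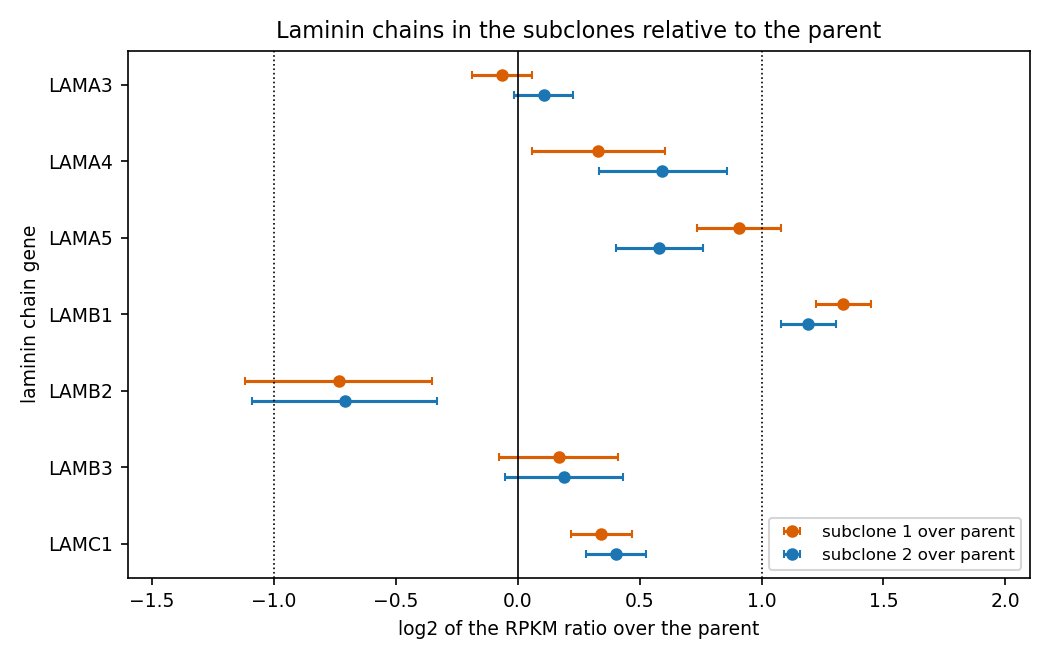
Log2 of the RPKM ratio over the parent for the 7 listed laminin chains in subclone 1 and subclone 2, with 95% counting intervals as bars and dotted lines at 2-fold. Both comparisons share the parent library, and LAMB1 lies beyond 2-fold in both.

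Over the 7 listed chains the median log2 ratio was 0.33 in subclone 1 and 0.40 in subclone 2 over the parent, against 0.0043 and 0.037 over all genes compared. In subclone 1, 5 of 7 chains were above 0, and in subclone 2, 6 of 7 were, against 50.4% and 53.5% of all genes. These counts were the same under each pseudocount and scaling tried. Between the subclones the median of the chains was 0.024 and that of all genes 0.034, and the former turned to -0.010 when centred on the median and to -0.0054 with the upper quartile. The 2 comparisons with the parent share its library, so their values are not independent.

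Within a library, LAMB1 was highest, followed by LAMC1 and LAMA3 at the deposited lengths. In the parent LAMB3, LAMA5, LAMA4 and LAMB2 followed, and LAMA4 and LAMB2 were not distinguished, with a ratio of 1.05 (0.842 to 1.30). In subclone 1 LAMA5 and LAMB3 were not distinguished, with a ratio of 1.02 (0.895 to 1.17). In subclone 2 the order was that of the parent.

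Outside the 9 genes, LAMA2, the alpha chain of muscle and nerve, had 6, 3 and 9 reads in the parent, subclone 1 and subclone 2, and the beta chain LAMB4 had 0, 2 and 2. Neither reached a mean of 1 RPKM.

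Summed over their listed genes, LAMA2 and LAMB4 included, the alpha chains reached 36.9 ± 0.909 RPKM (counting SE) in the parent, against 44.6 ± 0.983 in subclone 1 and 45.9 ± 0.993 in subclone 2. The beta chains summed to 53.7 ± 1.49, 105.5 ± 2.02 and 97.5 ± 1.93 RPKM. The beta class was thus 1.97-fold and 1.82-fold the parent, while the alpha class was 1.21-fold and 1.24-fold. The beta sum per alpha sum was 1.45 in the parent, against 2.36 in subclone 1 and 2.12 in subclone 2. With LAMA3 at its shorter length these ratios would be 0.956, 1.67 and 1.46, so which class was larger in the parent depends on that length. LAMB1 made up 64.2% of the beta sum in the parent, against 82.3% in subclone 1 and 80.6% in subclone 2. LAMA3 made up 60.9%, 48.2% and 52.8% of the alpha sum, which the shorter length would make 74.3%, 63.3% and 67.5%.

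**Figure D3:**
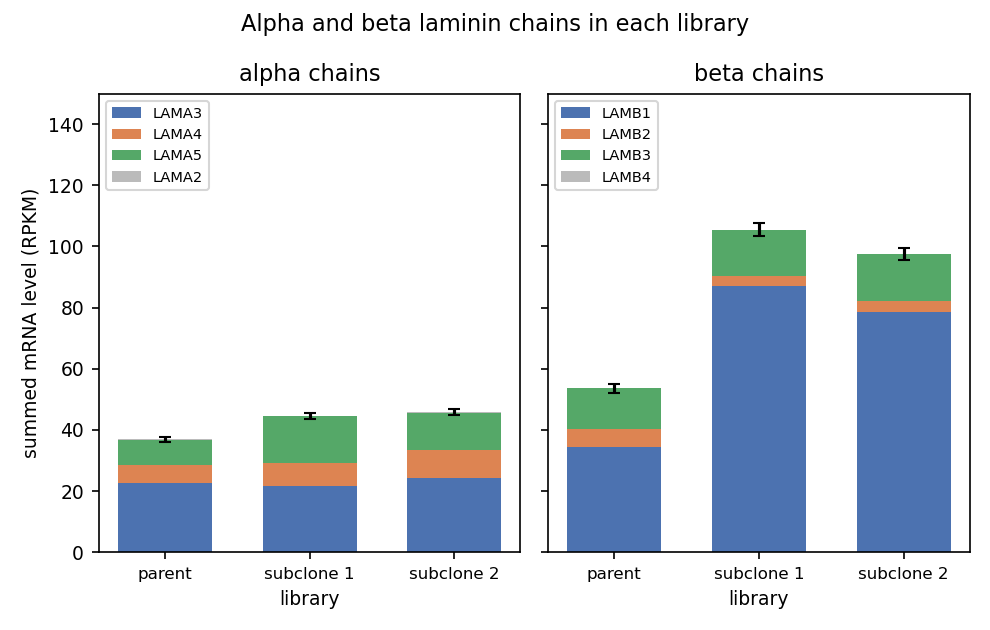
Summed RPKM of the alpha and beta laminin chains in each library, stacked by gene, with counting standard errors as bars on each sum. The beta sum is 53.7 in the parent, against 105.5 in subclone 1 and 97.5 in subclone 2, and LAMB1 is its largest part. The alpha sums use the deposited LAMA3 length.

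Of 12 genes for partners of laminin in the basement membrane, 5 reached a mean of 1 RPKM, and all 5 had log2 ratios above 0 in both subclones, against 50.4% and 53.5% of all genes. Among collagen IV chains below that mean, COL4A1 had 1, 1 and 0 reads in the parent, subclone 1 and subclone 2, and COL4A6 had 6, 7 and 3. COL4A2 was at 0.818, 0.277 and 0.676 RPKM. Its fold over the parent was 0.339 (0.131 to 0.784) in subclone 1 and 0.826 (0.430 to 1.57) in subclone 2. In subclone 2 the intervals of COL4A5, a collagen IV chain, at 1.39-fold (0.651 to 3.06), and of COL18A1, a basement membrane collagen, at 1.07-fold (0.936 to 1.23), included 1. The median log2 ratios of the 5 partners that reached the mean were 0.61 and 0.46 over the parent, and all 5 stayed above 0 under each pseudocount and scaling tried. NID1, which links laminin to collagen IV and was the most abundant partner, was at 24.5, 35.9 and 44.5 RPKM in the parent, subclone 1 and subclone 2, or 1.46-fold (1.32 to 1.62) and 1.82-fold (1.65 to 1.999) the parent. HSPG2, the basement membrane proteoglycan perlecan, was at 5.44, 10.5 and 13.03 RPKM. It was called in subclone 2 at 2.40-fold (2.11 to 2.72), as 1 of the 5 partners, against 5.33% of all genes. In subclone 1 it was at 1.93-fold (1.70 to 2.21) and was not called. COL4A5 in subclone 1 had an RPKM fold of 2.02 (1.01 to 4.27), and was not called because its log2 ratio with the pseudocount was 0.98. Its reads were recovered as 13, 27 and 19 in the parent, subclone 1 and subclone 2, at a length of 1289 bases. Multiples of that length above 3 were not tried, so its reads may be understated and its intervals too wide.

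Of the 13 laminin receptors, 12 reached a mean of 1 RPKM. ITGA1 alone was called, as higher in each subclone than in the parent, against 4.90% and 5.33% of all genes. Above 0 were 8 of the 12 in subclone 1 and 6 of the 12 in subclone 2, against 50.4% and 53.5% of all genes. The count in subclone 1 ran from 6 with division by ACTB to 9 with the upper quartile. In subclone 2 it became 7 with division by GAPDH. The median log2 ratios were 0.10 and 0.076. Division by ACTB turned the first median to -0.028. ITGA1, a collagen and laminin receptor chain, was at 1.07, 3.29 and 6.29 RPKM, 3.09-fold (1.91 to 5.18) and 5.91-fold (3.79 to 9.62) the parent. ITGB1, the shared beta subunit and the most abundant receptor gene, was at 288.0, 356.2 and 321.6 RPKM. DAG1, which encodes dystroglycan, and ITGA6, a laminin receptor alpha chain, were chosen after their values were seen. DAG1 was at 71.0, 44.8 and 49.9 RPKM, or 0.631 times (0.586 to 0.678) and 0.704 times (0.656 to 0.755) the parent. ITGA6 was at 78.4, 55.5 and 59.4 RPKM, or 0.708 times (0.662 to 0.758) and 0.758 times (0.709 to 0.809) the parent. Both were lower in the subclones under each scaling tried. SDC4, a syndecan, and ITGB4, an integrin beta chain, were also chosen after their values were seen. SDC4 was at 1.27-fold (1.10 to 1.46) and 1.74-fold (1.53 to 1.99) the parent. ITGB4 was at 1.04-fold (0.917 to 1.18) and 1.53-fold (1.36 to 1.71) the parent, so it did not follow ITGA6. RPSA, which may hold reads of its pseudogene copies, is uncertain, and was at 0.629 times and 0.675 times the parent.

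Netrins, secreted relatives of the laminin short arms, had 1 of 6 genes at a mean of 1 RPKM, NTN4, at 45.6, 44.1 and 55.4 RPKM. Of 13 genes that glycosylate dystroglycan so that it binds laminin, 9 reached that mean. Of these, 0 were called, beside shares of all genes of 1.39% to 5.33% per comparison and direction. POMGNT1, of the highest mean, was at 17.3, 18.8 and 16.6 RPKM. TMEM5, chosen after its values were seen, was at 22.9, 11.8 and 14.7 RPKM, or 0.516 times (0.388 to 0.683) and 0.644 times (0.495 to 0.835) the parent. Among 5 proteases that cut laminin chains, 3 reached that mean. MMP14, a membrane protease, was at 8.08, 17.9 and 15.8 RPKM. It was called in subclone 1 at 2.21-fold (1.79 to 2.74), against 4.90% of all genes called higher there. In subclone 2 it was at 1.96-fold (1.58 to 2.44) and was not called. MMP2, a secreted protease that MMP14 activates, was at 12.7, 3.79 and 0.775 RPKM, 0.297-fold (0.2201 to 0.397) and 0.0608-fold (0.0318 to 0.106) the parent. It was called lower in both subclones, against 1.82% and 2.16% of all genes.

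**Figure D4:**
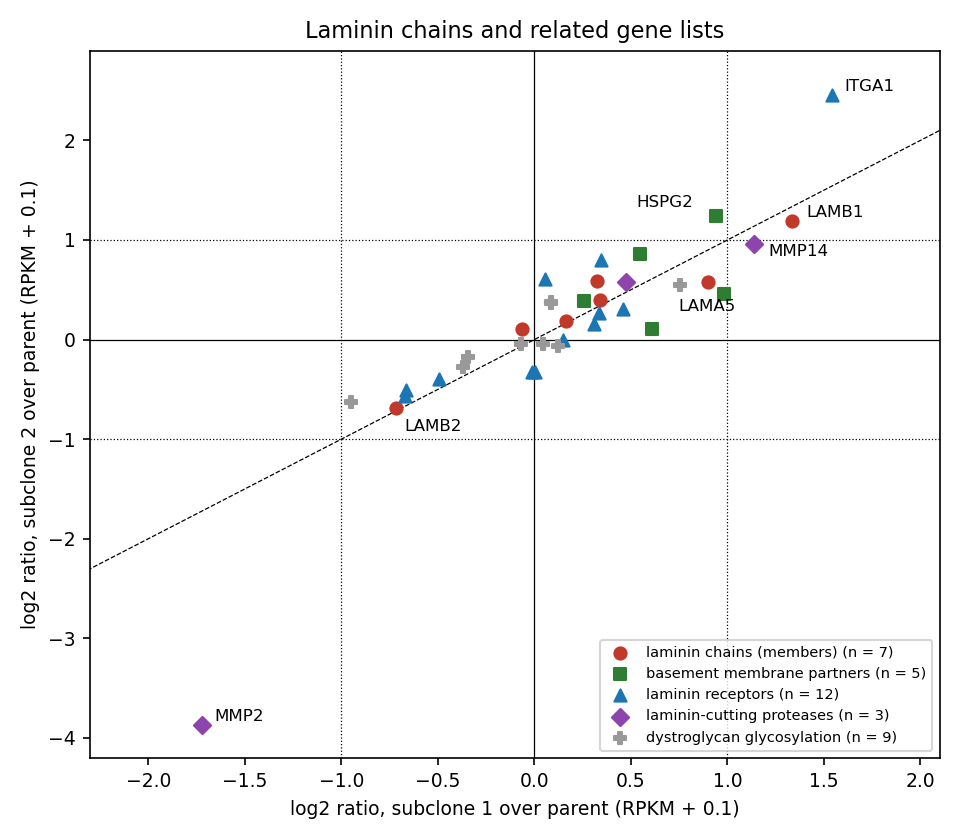
Log2 ratios over the parent of laminin chains, basement membrane partners, receptors, glycosylation genes and proteases with a mean of at least 1 RPKM, subclone 1 on the horizontal axis and subclone 2 on the vertical axis, with dotted lines at 2-fold. LAMB1 and ITGA1 lie above 2-fold on both axes and MMP2 lies below it on both; the axes share the parent library.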

How the data were processed

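Messenger RNA of 3 HCC cell lines was sequenced, with 1 library per group. The authors deposited RPKM values for genes by Entrez number and symbol; the submitters' processing notes name hg19, and the aligner, counting tool, annotation and strand handling are not given in the sources used here. Genes missing from a library were set to 0. The members and lists were chosen with earlier results of these data known.

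Whole reads were recovered from the RPKM steps, since a gene's values are its reads over 1 length and 1 total per library. This resolved 99.0%, 98.8% and 99.0% of the totals, by a rule revised after values were seen. A gene with reads sharing a divisor can be understated, which widens its interval. Ratios used a pseudocount of 0.1 RPKM and genes with a mean of at least 1 RPKM, and called means at least 2-fold. Intervals are exact (Poisson or Clopper-Pearson) at 95%.

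Named were the laminin chains, of which 1 is not reported here, list genes past 2-fold whose interval left out 1, the most abundant gene of each list, and the 3 genes nearest LAMB1 in pattern. The steps were tested on simulated data. Alternatives were other pseudocounts, scalings, filters and 1.5-fold, and, added after the values were seen, another LAMA3 length and 2 chain pairs. The planned pairs with LAMA1 and LAMC3 could not be computed, as neither is listed. Lengths came from GENCODE 29. Python 3.11.15, numpy 2.4.6, pandas 2.3.3, scipy 1.17.1 and matplotlib 3.10.9 were used.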

Additional observations from a re-analysis of the deposited data

Results flagged for a closer look

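LAMA3 lay on opposite sides of the parent in the subclones, with log2 ratios of -0.064 in subclone 1 and 0.11 in subclone 2. The difference was not tested, since each group held 1 library, and the counting interval of each fold over the parent included 1.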

How the results depend on the processing

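No paired analysis was possible because each group held 1 library, and leaving out a library would have removed its group. Of 147 alternative log2 ratios of the chains, 139 stayed within the counting interval of the reported value and 8 moved beyond it. In 4 the sign changed within an interval that included 0. For subclone 2 over subclone 1, LAMB2 became -0.010 and LAMB3 -0.013 when centred on the median, and -0.0054 and -0.0093 with the upper quartile. Dividing by ACTB gave, over the parent in subclone 1, -0.20 for LAMA3, 1.20 for LAMB1 and 0.21 for LAMC1, and in subclone 2 over subclone 1, 0.30, -0.019 and 0.19. Dividing by GAPDH gave -0.027 for LAMB1 and 0.18 for LAMC1 in subclone 2 over subclone 1. ACTB moved the median of all genes to -0.13 in subclone 1 over the parent and to 0.16 between the subclones, and GAPDH moved the latter to 0.15. The share of called genes that were higher went from 72.9% to 57.8% with ACTB in subclone 1 over the parent (328 lower), and from 50.5% to 64.0% with ACTB and 62.6% with GAPDH between the subclones. At 1.5-fold, 2 of the 7 listed chains were higher and 1 lower in each subclone than in the parent. Of the 11370 genes compared, 1317 were higher and 848 lower in subclone 1, and 1444 and 830 in subclone 2. LAMB1 was higher in both, LAMA5 in subclone 1 and LAMA4 in subclone 2. In subclone 2 LAMA4 lay just past the cutoff, at a log2 ratio of 0.5852, and LAMA5 just short of it, at 0.575. All 36 alternative chain-pair changes stayed within their intervals. With the shorter length LAMA3 was at 41.7, 39.9 and 44.9 RPKM. Counts over all genes, higher and then lower, for subclone 1 over the parent, subclone 2 over the parent and subclone 2 over subclone 1, were 347 and 117, 380 and 150, and 80 and 77 with a pseudocount of 1. They were 1523 and 884, 1553 and 941, and 842 and 902 with no filter, 233 and 71, 253 and 93, and 43 and 46 with a mean of at least 5 RPKM, and 1317 and 848, 1444 and 830, and 540 and 467 at 1.5-fold. At 1.5-fold, 3 and 2 of the 5 basement membrane partners compared were higher in subclone 1 and subclone 2 than in the parent. Of the 12 receptors compared, 2 were lower in subclone 1, 3 higher in subclone 2, and 1 higher in subclone 2 than in subclone 1. Of the 9 glycosylation genes compared, 1 was higher and 1 lower in subclone 1 and 1 lower in subclone 2. Of the 3 proteases compared, 1 was higher in subclone 2. Whether these list counts differ from the counts over all genes at 1.5-fold was not tested. With no filter, 1 netrin, NTN5, passed 2-fold upwards over the parent in both subclones. It had 0 reads in the parent and 1 in each subclone, so its log2 ratios of 1.10 and 1.08 rest on the pseudocount. The counting intervals of both NTN5 folds included 1 and had no upper limit. Without the filter, 1 partner also passed 2-fold downwards in subclone 1 over the parent and 1 upwards in subclone 2 over subclone 1. Of the glycosylation genes, 1 passed it downwards in subclone 1 over the parent. The cause was not tested. With 1 library per line, differences between cultures of a line are not measured. LAMB2, with 94 to 152 reads, has the widest relative intervals among the listed chains.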

Other observations

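The genes nearest to LAMB1 in their log2 ratios of both subclones over the parent, over 3 libraries, were HLA-C, KIAA1908 and TMEM129, at distances of 0.0045, 0.032 and 0.037. HLA-C, a classical class I antigen gene whose reads may be shared with its close relatives, was at 17.3, 43.9 and 39.5 RPKM in the parent, subclone 1 and subclone 2. KIAA1908 was at 0.842, 2.27 and 1.999 RPKM and TMEM129 at 1.25, 3.34 and 3.04 RPKM. Within a distance of 0.1 there were 11 genes.

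The 5 genes near LAMB1 on chromosome 7 in RefSeq order that reached a mean of 1 RPKM, chosen after the values were seen, each had a lower deposited RPKM in both subclones than in the parent, as had 49.6% and 46.5% of all genes by log2 ratio. NRCAM, a neuronal adhesion gene, was at 114.2, 74.2 and 59.7 RPKM. CBLL1 was at 42.3, 37.1 and 34.8 RPKM, and DLD, a subunit of mitochondrial dehydrogenase complexes, at 76.5, 72.3 and 74.2 RPKM. Division by GAPDH turned the log2 ratio of DLD in subclone 2 from -0.044 to 0.019. PNPLA8 and THAP5 had log2 ratios of -0.30 and -0.34 in subclone 1 and -0.13 and -0.32 in subclone 2.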
